A study of Mus musculus with 6 samples.

Results

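The respiratory chain and ATP synthase of the mouse ovary were followed through 29 genes for their subunits, out of 19412 genes measured. The genes were listed by name from the known subunits, with earlier results of these data known. Each was read from the array probes that carry its name or an older one. The set holds 10 genes of complex I, 4 of complex II, 5 of complex III, cytochrome c, 5 of complex IV and 4 of the ATP synthase, also called complex V. All are nuclear genes. The ovaries came from female C57BL/6J mice aged 20 weeks. Wild-type ovaries (3 arrays) were compared with SeBP1 knockout ovaries (3 arrays), to ask how loss of that gene affects expression in the ovary. SeBP1 is selenium-binding protein 1, gene symbol Selenbp1, a methanethiol oxidase. The sources used here do not say how the knockout was made or whether the animals were littermates. Replicates are numbered 1 to 3 as in the sample descriptions. The labels do not state that the arrays of a genotype came from different animals, and the p-values cover the spread among these 6 arrays, which may be technical in part.

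The respiratory chain sits in the inner mitochondrial membrane. Complex I takes electrons from NADH and complex II from succinate. Ubiquinone carries them to complex III, cytochrome c carries them on to complex IV, and complex IV hands them to oxygen. Complexes I, III and IV pump protons across the membrane, and the ATP synthase lets the protons flow back and makes ATP. Steroid-producing cells of the ovary depend on mitochondria, since the first step of steroid synthesis takes place at the inner membrane, and oocytes carry very large numbers of mitochondria.

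Every value is a log2 signal from which the array's own 75th percentile was subtracted, so that 0 stands for the 75th percentile and 1 unit is a 2-fold step. Differences are knockout minus wild type in log2 units, with standard errors (SE) and p-values from limma. The targeted gene was read first. Selenbp1, probed at chr3:94748621-94748680 of build mm9, was at 2.68, 2.53 and 2.59 in wild-type replicates 1, 2 and 3. In knockout replicates 1, 2 and 3 it was at -0.11, 0.025 and -0.37. All 3 knockout ovaries lay far below all 3 wild-type ovaries, with a difference of -2.75 (SE 0.13, limma adjusted p = 0.0104), or 6.72-fold. It was still well above background on all 3 knockout arrays, and the deleted part of the gene is not described in the sources used here. Leaving out 1 array kept the difference between -2.84 and -2.64. The adjusted p then missed 0.05 without wild-type replicate 1 or 2 or knockout replicate 1 or 3, at 0.0631 to 0.167 (limma). Of 24415 probes tested, 1 was called at an adjusted p under 0.05, which is 0.0041%, and it was the Selenbp1 probe.

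All members were strongly expressed. Of 38 probes for the 29 genes, 37 were kept, and the brightest probe stood for each gene. For 28 members that probe was well above background on all 6 arrays. Cox6a1 lacked values on the arrays of wild-type replicates 1 and 2, where the scanner software had marked its spots as outliers. None of the 29 members was called between genotypes, and the lowest adjusted p among them was 0.9999 (limma). At an unadjusted p under 0.05, 1 member was lower in the knockout, Sdhd, and none was higher. Among all 19412 genes, 369 (1.9%) were lower at that level and 439 were higher.

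The members leaned to lower values in the knockout by a small amount. Of the 29, 23 were lower and 6 higher, which is 79.3% lower against 54.5% of all 19412 genes. Their median difference was -0.071, beside -0.017 for all genes. Single members ran from -0.35 (Cox6a1, read on only 1 wild-type array) to 0.10 (Atp5a1). For 6 members every knockout ovary measured lay below every wild-type ovary measured. That is 20.7% of the members, beside 4.97% of all genes. The 6 were Ndufa1, Ndufs3, Sdhb, Sdhc, Sdhd and Cox6a1, and without Cox6a1 the count was 5 of 28, or 17.9%. No member lay above in all knockouts, while 4.22% of all genes did. The members were read in the same 6 ovaries, so counts over members are not counts of independent measurements. The scaling of the arrays changed the lean in size. With quantile normalization 69.0% of the members were lower against 50.4% of all probes, and the deposited series table gave 65.5% against 50.2%. There, 5 members separated the genotypes downwards (4.58% of all genes did), namely Ndufs3, Sdhc, Sdhd, Uqcrb and Atp5b. With normexp background correction 4 did (6.16% of all genes), namely Ndufs1, Ndufs3, Sdhc and Cox6a1, and Cox4i1 separated them upwards. Quantile normalization after leaving out the marked spots gave the most, 15 of 29, beside 8.17% of all genes. In that setting the arrays hold unlike sets of bright probes. Of the 1000 brightest, 127 and 177 had every spot marked in wild-type replicates 1 and 2, and 0 on each other array. Ndufs3 and Sdhc separated the genotypes under each of the 7 ways of scaling or of treating marked spots that were compared. The share of all genes that did so was not computed, and the 7 ways start from the same 6 arrays. In pieces of whole ovary, fewer cells of a type and less RNA per cell cannot be told apart.

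**Figure D1:**
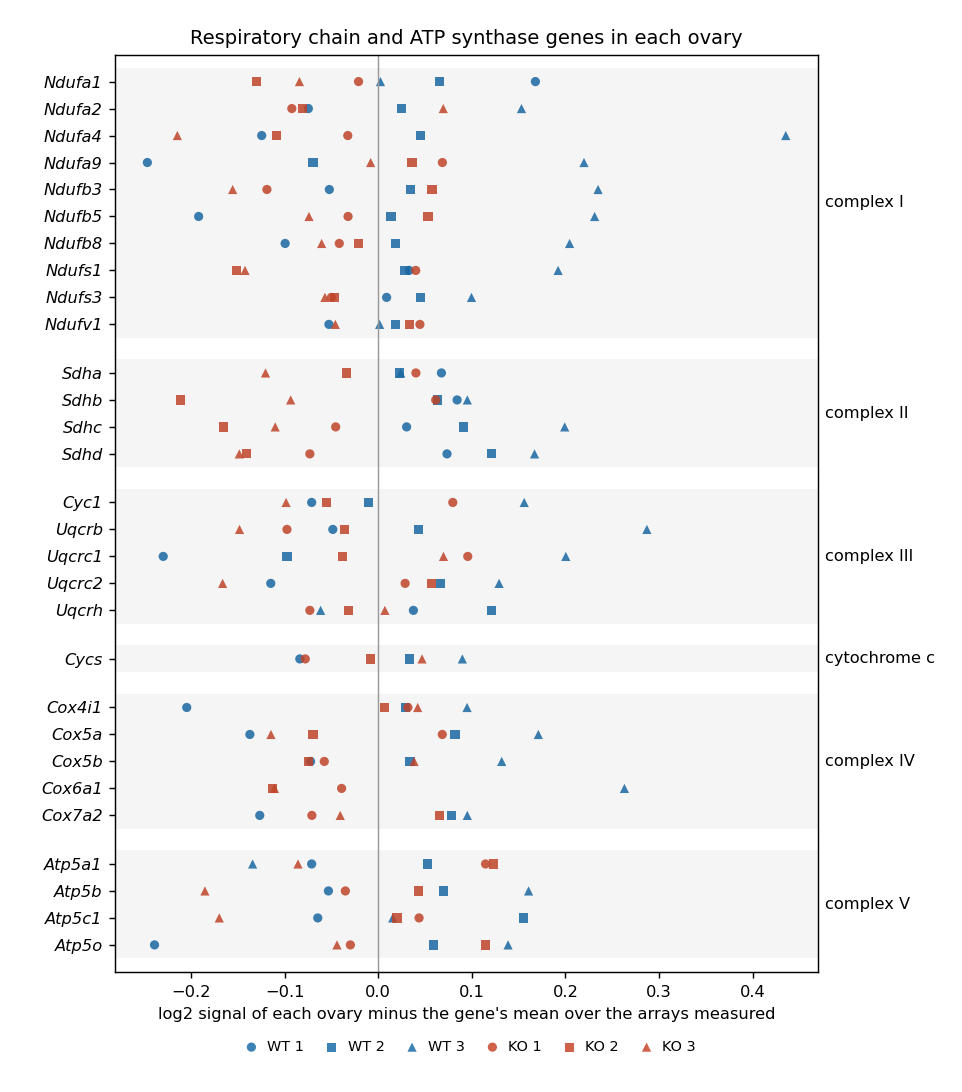
Log2 signal of each ovary minus the gene's mean over the arrays measured, for the 29 members grouped by complex. Blue marks are wild type and red marks are knockout, with circles, squares and triangles for replicates 1, 2 and 3; wild-type replicate 3 is the highest ovary in 22 of the 28 members with 6 values, and the genotypes separate at Ndufa1, Ndufs3, Sdhb, Sdhc, Sdhd and Cox6a1.

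Much of the spread lay between ovaries of the same genotype. Wild-type replicate 3 was the highest of the 6 ovaries for 22 of the 28 members with 6 values. Over all genes with 6 values it was the highest for 21.4% and the lowest for 24.4%. The lowest ovary was wild-type replicate 1 for 10 members and knockout replicate 3 for 10. Over the 28 members the mean signal relative to each gene's own mean was -0.066, 0.044 and 0.13 in wild-type replicates 1, 2 and 3. It was -0.0083, -0.028 and -0.075 in knockout replicates 1, 2 and 3. The genotypes overlapped, since wild-type replicate 1 lay below knockout replicates 1 and 2. With quantile normalization after leaving out the marked spots they did not, with the mean over the 29 members at 0.0086 to 0.19 in wild type and -0.11 to -0.056 in the knockout. Complexes I, III and IV, which overlapped in the main setting, also separated there. Over the 29 members, wild-type replicates 1 and 2, whose arrays lack marked bright probes, were at 0.086 and 0.19 in that setting. In the main setting they were at -0.066 and 0.044. Without wild-type replicate 3 the members' median difference was -0.012, beside -0.026 over all probes, and 18 of the 28 members with a value were lower. The array of wild-type replicate 3 also had the lowest share of spots well above background, 61.6% against 63.9% to 69.3% on the others. Its 75th percentile was the lowest too, 1309 against 1493 to 1759 intensity units. Repeated spots of a probe varied most there, with a median SD of 6.46% of their mean against 2.35% to 3.34% on the others. The part of these array differences in the members' values was not tested.

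The 2 slides divided the genotypes unevenly. Wild-type replicates 1 and 2 lay on slide 1, and wild-type replicate 3 lay with all 3 knockouts on slide 2. Within slide 2 the members' median difference was -0.18 and 26 of 29 members were lower, which compares the knockouts with wild-type replicate 3 alone. Over all probes the median difference within slide 2 was 0.031, and 45.5% were lower. No member was called with slide as a block. The lowest adjusted p of any member under any of the 20 processing alternatives was 0.27 (limma with array weights, Sdhd).

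Members varied little across the 6 ovaries. The range from the lowest to the highest ovary had a median of 0.31 over members, beside 0.52 over all genes. The members are bright, with means of 2.66 to 7.61, and all genes were not matched to them in signal. Ndufv1, the flavoprotein subunit that binds NADH, was the steadiest at 0.097. Ndufa4 was the most variable at 0.65. The SE of a member's difference was between 0.093 and 0.16. The 95% confidence interval lay within 1 log2 unit of 0 for all 29 members and within 0.5 for 27, so that for each member a difference of 2-fold lay outside its interval. The exceptions at 0.5 were Cox6a1, whose interval reached -0.77, and Ndufa4, whose interval reached -0.63.

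**Figure D2:**
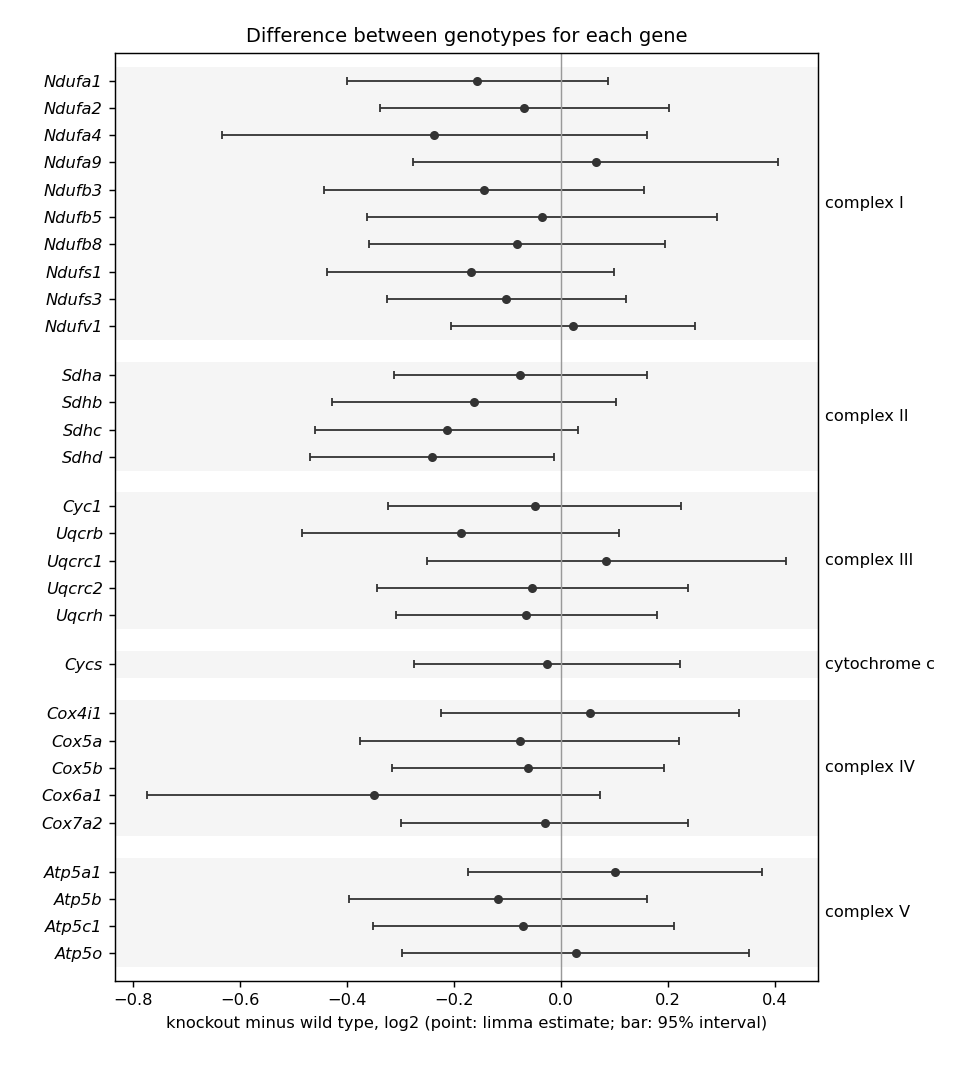
Difference between genotypes for each member in log2 units, knockout minus wild type, with the limma estimate as a point and its 95% confidence interval as a bar. The intervals of 28 members include 0, and that of Sdhd runs from -0.47 to -0.013.

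Complex II, succinate dehydrogenase, was lower in the knockout in all 4 of its subunits, with a median difference of -0.19. It belongs to both the respiratory chain and the citric acid cycle, and it is the complex whose subunits are all encoded in the nucleus. Sdha is the flavoprotein that oxidises succinate, Sdhb carries the iron-sulfur clusters, and Sdhc and Sdhd anchor the complex in the membrane and form the ubiquinone site. Because all 4 subunits were lower, the stretches before their RefSeq transcription starts are shown, 150 bases each in build GRCm38.p6, for the 3 that had a promoter in the RefSeq table used, Sdha, Sdhb and Sdhd. Capitals mark matches on either strand to the motifs GCGCNTGCG (nuclear respiratory factor 1, NRF-1), CCGGAAG (GABPA and other ETS factors) and GGGCGG (SP1).
Sdha, minus strand, chr13:74350241-74350390: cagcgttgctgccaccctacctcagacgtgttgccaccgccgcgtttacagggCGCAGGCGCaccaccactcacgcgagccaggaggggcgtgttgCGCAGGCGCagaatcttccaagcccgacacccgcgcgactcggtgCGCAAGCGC
Sdhb, plus strand, chr4:140961121-140961270: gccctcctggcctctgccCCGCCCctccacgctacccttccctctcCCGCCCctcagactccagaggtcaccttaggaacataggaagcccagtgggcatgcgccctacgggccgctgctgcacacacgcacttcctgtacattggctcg
Sdhd, minus strand, chr9:50603850-50603999: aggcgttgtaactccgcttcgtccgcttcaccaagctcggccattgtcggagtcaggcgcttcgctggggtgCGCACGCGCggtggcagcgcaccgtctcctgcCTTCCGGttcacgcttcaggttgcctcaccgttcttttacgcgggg

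The Sdha stretch held the NRF-1 letters 3 times, 9, 54 and 97 bases before the start. Sdhd held the NRF-1 letters at 78 and the ETS letters at 46 bases before the start. Sdhb held neither motif in its 250 bases and had the SP1 letters at 104, 132 and 152 bases, the last outside the stretch shown. Of the 29 members, 21 matched a promoter in the table. In the 250 bases before the start, 4 of 21 held the NRF-1 letters (19.0%, against 5.40% of all 27025 promoters), namely Cox6a1, Cycs, Sdha and Sdhd. The ETS letters stood in 4 of 21 (19.0% against 7.05%), namely Cox6a1, Ndufs3, Sdhd and Uqcrh. The SP1 letters stood in 8 of 21 (38.1% against 32.9%), namely Atp5b, Cox5a, Cox6a1, Cox7a2, Ndufa1, Ndufb8, Ndufs3 and Sdhb. No member held AAGATGGC (YY1) or TCAAGGTCA (ESRRA), which stood in 1.59% and 0.366% of all promoters. No motif searched contains another, Cox6a1 holds overlapping NRF-1 matches on both strands, and a match is a description of the sequence, not a bound site.

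Sdhd had the smallest p of all members. It was at 4.01, 4.06 and 4.10 in wild-type replicates 1, 2 and 3, and at 3.86, 3.80 and 3.79 in knockout replicates 1, 2 and 3. All knockouts lay below all wild types, by -0.24 (SE 0.095) or 1.18-fold. The unadjusted p was 0.0414 and the adjusted p 0.9999 (limma). Its probe lies at chr9:50404630-50404689 of mm9.

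Sdhc was at 2.93, 2.99 and 3.10 in wild type and at 2.85, 2.73 and 2.79 in the knockout. The genotypes did not overlap, and the difference was -0.21 (SE 0.10, unadjusted p = 0.0784, limma). The probe lies at chr1:173059539-173059598 of mm9. A second, dimmer Sdhc probe gave a difference of -0.087 (SE 0.10) with overlapping genotypes.

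Sdhb was at 5.09, 5.07 and 5.10 in wild type and at 5.06, 4.79 and 4.91 in the knockout. The 3 wild-type ovaries were close together, and knockout replicate 1 lay only just below them. The difference was -0.16 (SE 0.11, unadjusted p = 0.188, limma). A second Sdhb probe was at 3.31, 3.28 and 3.54 in wild type and 3.22, 2.91 and 3.13 in the knockout. It also separated the genotypes, by -0.29 (SE 0.13). The probes lie at chr4:140535052-140535108 and chr4:140529606-140529665 of mm9.

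Sdha, given here to complete the complex, was at 3.78, 3.73 and 3.73 in wild type and 3.75, 3.67 and 3.59 in the knockout. Knockout replicate 1 lay within the wild-type range, and the difference was -0.076 (SE 0.098). As a complex, the mean over the 4 genes relative to each gene's mean was 0.064, 0.075 and 0.12 in wild-type replicates 1, 2 and 3. It was -0.0042, -0.14 and -0.12 in knockout replicates 1, 2 and 3, so all knockouts lay below all wild types. The same separation was seen with median scaling, with quantile normalization and in the deposited series table. With normexp background correction the genotypes overlapped, since wild-type replicate 1 was at -0.024 and knockout replicate 1 at 0.026. The median difference of complex II was lower in the knockout under each of the 20 alternatives, from -0.28 to -0.12. The same sign was kept by complex I (-0.22 to -0.037), complex III (-0.18 to -0.0025) and all members (-0.21 to -0.012). Without wild-type replicate 3 the complex II median was -0.16. The difference of complex II from the other complexes was not tested.

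**Figure D3:**
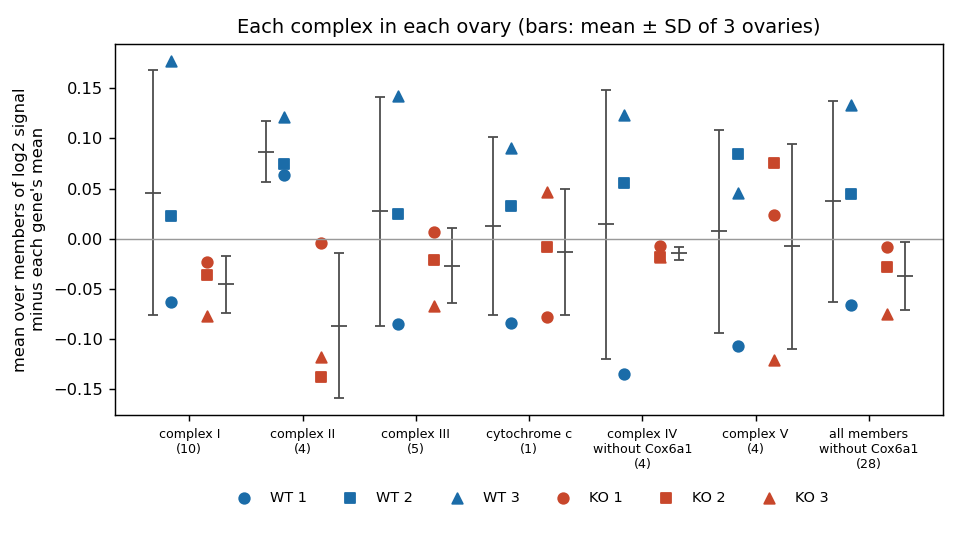
Mean over the members of each complex of the log2 signal minus each gene's mean, for each ovary, with the number of genes in brackets; bars beside the points give the mean and SD of 3 ovaries. Complex II is the complex in which the 3 wild types (0.064 to 0.12) and the 3 knockouts (-0.14 to -0.0042) do not overlap; complex IV and the whole set are drawn without Cox6a1, which lacks 2 wild-type arrays.

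Complex I, NADH dehydrogenase, had 8 of 10 members lower and a median difference of -0.092. Its mean over members was -0.063, 0.023 and 0.18 in wild-type replicates 1, 2 and 3, and -0.024, -0.036 and -0.077 in the knockouts. Wild-type replicate 1 lay within the knockout range. Ndufa1, a small accessory subunit of the membrane arm encoded on the X chromosome, was at 4.51, 4.41 and 4.34 in wild type and 4.32, 4.21 and 4.26 in the knockout. The genotypes did not overlap, with wild-type replicate 3 and knockout replicate 1 nearly equal, and the difference was -0.16 (SE 0.10). Ndufs3, a core subunit of the arm that reaches into the matrix, was at 4.93, 4.96 and 5.02 in wild type and 4.87, 4.87 and 4.86 in the knockout. The 3 knockouts were nearly identical and lay just below the wild types, by -0.10 (SE 0.093).

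Ndufs1, the largest core subunit, with iron-sulfur clusters, was at 3.64, 3.64 and 3.80 in wild type and 3.65, 3.46 and 3.47 in the knockout. Knockout replicate 1 lay above wild-type replicates 1 and 2, and the difference was -0.17 (SE 0.11). Ndufa4 was named as a complex I subunit and has since been assigned to complex IV. It was at 3.45, 3.62 and 4.01 in wild type and 3.55, 3.47 and 3.36 in the knockout. Wild-type replicate 3 stood high and the other wild types overlapped the knockouts, with a difference of -0.24 (SE 0.16) that was -0.079 without wild-type replicate 3. With Ndufa4 moved to complex IV, the median difference was -0.082 in complex I and -0.070 in complex IV. The remaining complex I members overlapped between genotypes. Ndufb3 was at -0.14, Ndufb8 at -0.082, Ndufa2 at -0.069 and Ndufb5 at -0.035. These are accessory subunits of the complex. The higher members were Ndufv1 at 0.022 and Ndufa9, an accessory subunit at the join of the arms, at 0.064.

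Complex III, the cytochrome bc1 complex, had 4 of 5 members lower, with a median difference of -0.054 and no member that separated the genotypes. Uqcrb, a small subunit near the ubiquinone site, was at 4.19, 4.29 and 4.53 in wild type and 4.14, 4.21 and 4.09 in the knockout. Wild-type replicate 1 lay among the knockouts, and the difference was -0.19 (SE 0.12). All 3 of its kept probes were lower, by -0.19, -0.16 and -0.051. Uqcrh, the hinge protein, was at -0.065, the core subunit Uqcrc2 at -0.054 and the haem-bearing Cyc1, cytochrome c1, at -0.050. Uqcrc1, the other core subunit, was at 0.085 (SE 0.14). It was at 0.21 without wild-type replicate 3.

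Cycs, the somatic cytochrome c that shuttles electrons to complex IV and also takes part in apoptosis, was at 3.88, 4.00 and 4.05 in wild type and 3.89, 3.96 and 4.01 in the knockout. The knockouts lay within the wild-type range, with a difference of -0.026 (SE 0.10). Its second probe disagreed in part. That probe was at 2.01, 1.99 and 1.96 in wild type and 1.81, 1.79 and 1.81 in the knockout, with no overlap and a difference of -0.19 (SE 0.091, unadjusted p = 0.0852, limma). The probes lie at chr6:50515092-50515151 and chr6:50514522-50514581 of mm9.

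Complex IV, cytochrome c oxidase, had 4 of 5 members lower and a median difference of -0.062. Cox6a1, the form of subunit 6a found in most tissues, was at 7.61 in wild-type replicate 3 and at 7.30, 7.23 and 7.23 in knockout replicates 1, 2 and 3. Its difference of -0.35 (SE 0.16, unadjusted p = 0.0841, limma) therefore set the knockouts against 1 wild-type ovary. With the marked spots kept, wild-type replicates 1 and 2 were at 6.95 and 6.86, below all knockouts, and the difference was 0.12 (SE 0.21). Its sign thus turned with those spots. The other members overlapped between genotypes, with Cox5a at -0.077, Cox5b at -0.062 and Cox7a2 at -0.031. Cox4i1, which takes part in control of the enzyme by ATP, was at 0.054 (SE 0.12). Without Cox6a1 the median of complex IV was -0.047. Over the alternatives the median of the 5 ran from -0.19 to 0.012, the last in the deposited table.

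Complex V, the ATP synthase, was split, with 2 of 4 members lower and a median difference of -0.022. The catalytic beta subunit Atp5b was at -0.12 (SE 0.12) and the gamma subunit of the rotor shaft, Atp5c1, at -0.071 (SE 0.12). A second, dimmer Atp5c1 probe had the opposite sign, 0.13 (SE 0.25), and the mean of the Atp5c1 probes gave 0.029. The alpha subunit Atp5a1 was at 0.10 (SE 0.11). Atp5o, the subunit that joins the catalytic head to the peripheral stalk and confers oligomycin sensitivity, was at 0.027 (SE 0.13). Genotypes overlapped for each of the 4. The mean over the 4 genes ran from -0.11 to 0.084 in wild type and from -0.12 to 0.075 in the knockout, which is nearly the same span. The median of complex V ran from -0.13 to 0.028 over the alternatives and so had no fixed sign.

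**Figure D4:**
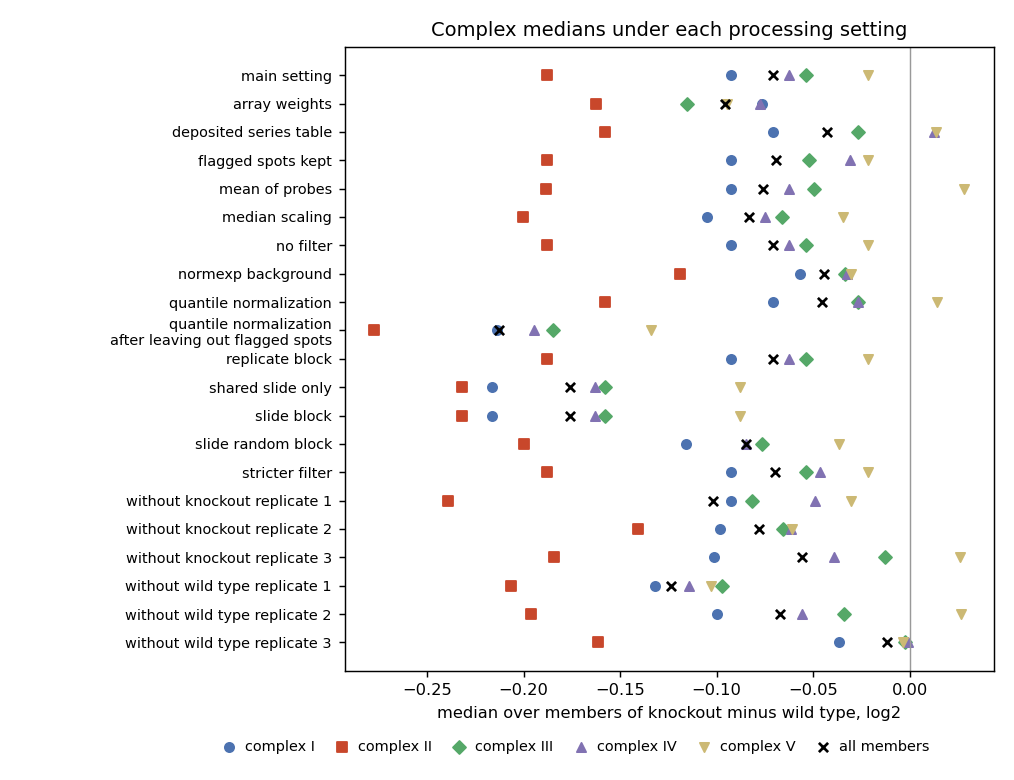
Median over the members of each complex of the difference between genotypes, knockout minus wild type in log2 units, under the main setting and each of 20 alternatives. The squares of complex II stay between -0.28 and -0.12, and the medians of complexes I and III and of all members also stay below 0. The medians of complexes III and IV come close to 0 without wild-type replicate 3, and those of complexes IV and V lie on either side of 0.

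The other parts of the same machinery leaned the same way without any call. Of 49 further nuclear subunits, 43 (87.8%) were lower, beside 54.5% of all genes, with a median difference of -0.11. For 7 (14.3%) every knockout measured lay below every wild type measured, beside 4.97% of all genes. Among these, Atp5g3 lacked wild-type replicate 1, whose marked spot was at 5.89, below all knockouts. With marked spots kept the count was 6. None of the 49 was called, nor had any an unadjusted p under 0.05 (limma). Their mean relative to each gene's mean was -0.077, 0.057 and 0.16 in wild-type replicates 1, 2 and 3 and -0.056, -0.039 and -0.047 in the knockouts. Wild-type replicate 3 was the highest, and wild-type replicate 1 lay below all 3 knockouts. The lower gene with the smallest p was Atpif1, the inhibitor of ATP synthase when it runs in reverse. It was at 6.25, 6.22 and 6.33 in wild type and 6.14, 5.96 and 6.03 in the knockout, with no overlap and a difference of -0.22 (SE 0.10). The higher gene with the smallest p was Atp5h, the peripheral stalk subunit d, at 0.26 (SE 0.15).

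Subunits encoded in mitochondrial DNA could be read for 7 of 13 genes. Of these, 5 were lower, the median difference was -0.055 and none was called. That lean depended on marked spots, since mt-Co1 and mt-Cytb each lacked 1 wild-type array. With the marked spots kept, mt-Co1 went from -0.094 to 0.0020 and mt-Cytb from -0.055 to 0.029, which left 3 of 7 lower and a median of 0.0020. The lower gene with the smallest p was mt-Nd1, a membrane subunit of complex I. It was at 3.14, 3.17 and 3.39 in wild type and 3.13, 2.98 and 3.04 in the knockout. The genotypes did not overlap, though wild-type replicate 1 and knockout replicate 1 were nearly equal, and the difference was -0.18 (SE 0.12). mt-Nd4 was the higher gene with the smallest p, at 0.030 (SE 0.093). The sum of the linear signals of the 7 genes, marked spots kept, was 390 to 433 times the 75th percentile in wild type and 401 to 416 in the knockout, so the knockouts lay within the wild-type range.

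Assembly factors help to build the complexes and are not part of them. Of 39 that were kept out of 42, 31 (79.5%) were lower, beside 54.5% of all genes, with a median difference of -0.12. For 7 (17.9%) all knockouts lay below all wild types, beside 4.97% of all genes. The mean over the 39 relative to each gene's mean was -0.049, 0.023 and 0.19 in wild-type replicates 1, 2 and 3. It was -0.029, -0.024 and -0.11 in knockout replicates 1, 2 and 3. Wild-type replicate 1 thus lay below knockout replicates 1 and 2. Ndufaf7, a methyltransferase that modifies a core subunit during complex I assembly, differed by -0.61 (SE 0.20, unadjusted p = 0.0215, adjusted p = 0.9999, limma). It was at 1.73, 1.89 and 2.41 in wild type and 1.58, 1.39 and 1.23 in the knockout. All knockouts lay below all wild types, and wild-type replicate 3 was again the highest. Ttc19, a factor for complex III, was the higher one with the smallest p, at 0.13 (SE 0.11).

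Tissue-restricted forms of the subunits showed larger and more scattered differences. Of 8 listed, 6 were kept, 5 were lower and the median was -0.31. Cox6a2, the heart and muscle form of subunit 6a, was at -2.35, -2.50 and -2.32 in wild type and -2.77, -2.58 and -2.55 in the knockout. The genotypes did not overlap, by -0.24 (SE 0.12). The genotypes overlapped in the others. Cox8b, another heart and muscle form, was at -0.53 (SE 0.47) and Cox7a1, also a muscle form, at -0.37 (SE 0.19). Ndufa4l2, a form induced by low oxygen, was at -0.50 (SE 0.38). Cox4i2, the lung form of subunit 4, was at -0.092 (SE 0.36) and the testis form Cox6b2 at 0.12 (SE 0.22). The testis forms Cox8c and Cyct were not well above background on all arrays of either genotype.

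Regulators of mitochondrial genes were divided, with 7 of 13 lower and a median of -0.018, close to that of all genes. Pprc1, a coactivator related to PGC-1alpha, was at -3.61, -3.48 and -3.58 in wild type and -3.26, -3.47 and -3.40 in the knockout. All knockouts lay above all wild types, by 0.18 (SE 0.11), though knockout replicate 2 and wild-type replicate 2 were nearly equal. Tfb1m, which methylates mitochondrial ribosomal RNA, was at -0.29 (SE 0.22).

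The citric acid cycle and pyruvate dehydrogenase supply the chain with NADH and succinate. All 15 of these enzymes were lower, beside 54.5% of all genes, with a median of -0.094 and none called. For 2 (13.3%) all knockouts lay below all wild types, beside 4.97% of all genes. The mean over the 15 relative to each gene's mean was -0.0059, 0.019 and 0.14 in wild-type replicates 1, 2 and 3. It was 0.066, -0.11 and -0.11 in knockout replicates 1, 2 and 3. Knockout replicate 1 thus lay above wild-type replicates 1 and 2. The list leaves out succinate dehydrogenase, which is counted among the members. Suclg2, a subunit of the enzyme that makes succinate, was at -0.25 (SE 0.13) and had the smallest p of the list. Of 15 glycolytic enzymes 10 (66.7%) were lower, with a median of -0.12. Aldoa, an aldolase, was at 7.20, 7.12 and 7.34 in wild type and 6.97, 6.99 and 6.99 in the knockout, without overlap and with a difference of -0.24 (SE 0.10). Gapdh was at 0.057 (SE 0.11). The glycolytic list thus leaned lower as well, and whether the lists differ was not tested.

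**Figure D5:**
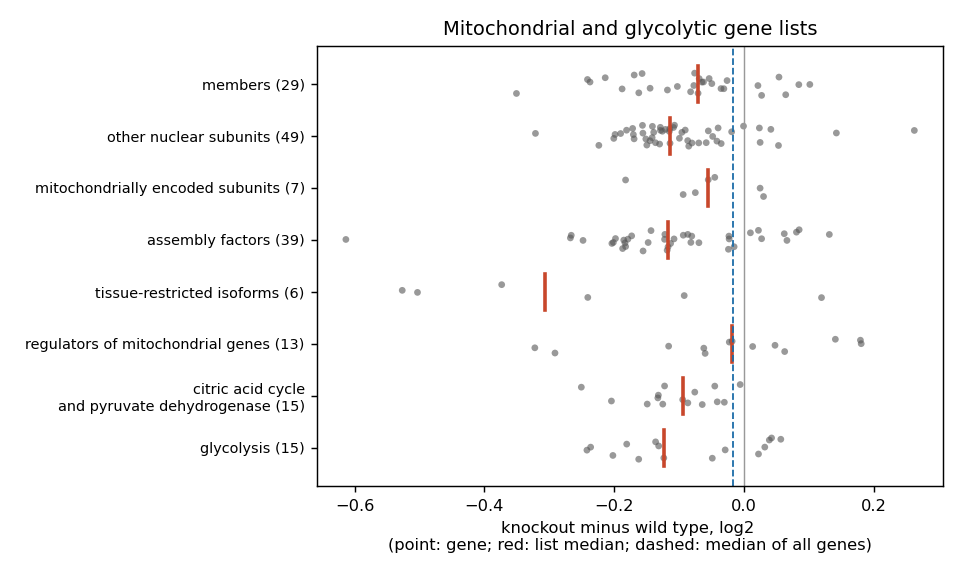
Difference between genotypes for each gene of the members and of the further lists, knockout minus wild type in log2 units, with list medians in red and the median of all genes (-0.017) as a dashed line. List medians lie between -0.31 for the tissue-restricted isoforms and -0.018 for the regulators, and single genes scatter on both sides of 0 in each list except the citric acid cycle.

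The defining markers of ovarian cells were present, and their summed levels differed from ovary to ovary. The 7 luteal markers, all kept, summed to 167 to 230 times the 75th percentile in wild type and 129 to 224 in the knockout, marked spots kept. In replicates 1, 2 and 3 the luteal sums were 167, 180 and 230 in wild type and 224, 129 and 213 in the knockout. Granulosa markers (8 of 8 kept, 5 higher) summed to 137 to 241 and 150 to 259. All 8 oocyte markers were lower, with sums of 30.1 to 54.98 in wild type and 29.6 to 53.4 in the knockout. Of 4 theca markers 3 were kept, with sums over these 3 of 6.23 to 19.6 and 11.8 to 20.1, and Insl3 had no probe under its name.

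Markers of tissues beside the ovary also differed from ovary to ovary. Sums are over the markers that were kept. The 5 smooth muscle markers, all lower, summed to 25.9 to 35.6 in wild type and 17.5 to 31.1 in the knockout. The 5 markers of the surface epithelium, all lower, summed to 18.2 to 28.1 and 12.1 to 20.8. Fat markers (5 of 8 kept; Adipoq, Cidec and Ucp1 not well above background) summed to 1.11 to 18.7, highest in wild-type replicate 1, and to 1.32 to 2.11 in the knockout. The blood markers Hbb-b1, Hba-a1 and Alas2 were all higher in the knockout, with a median difference of 1.34. They summed to 6.35 to 12.6 in wild type and 11.96 to 55.95 in the knockout, highest in knockout replicate 2. Oviduct markers (2 of 4 kept; Foxj1 and Sec14l3 not) summed to 0.382 to 28.8, highest in wild-type replicate 2, and to 0.107 to 0.584. Of 6 skeletal muscle markers, Ckm, Mb, Myh4, Mylpf and Tnnt3 were not well above background, and Acta1 was at 0.476 to 0.543 in wild type and 0.382 to 0.792 in the knockout. No marker in these lists was called, and their part in the values of the members was not tested.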

How the data were processed

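Ovary RNA, 3 samples of wild type and 3 of SeBP1 knockout, was labelled with Cy3 and hybridised to single-colour Agilent arrays, per the labels' protocols. The deposited scanner files hold linear spot intensity from Agilent Feature Extraction 10.7.1.1, background-subtracted and not normalized between arrays. Probe positions follow mm9 (same headers). A deposited table of the series, also intensity, had the same median (119.8) in all 6 columns. The sources used here do not say how the authors made it, and it was used as an alternative.

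Outlier-marked spots were left out, 192 to 459 of 43020 per array, and repeated spots were averaged, none of them saturated. A probe was kept if all 3 arrays of either genotype had it well above background (24415 probes, 19412 genes). Values are log2 intensity minus the log2 75th percentile of the array. Genotypes were compared in R 4.3.3 by limma 3.58.1 (lmFit, eBayes; two-sided), with Benjamini-Hochberg adjustment over all kept probes and a threshold of 0.05. Fits were checked on simulated data. The brightest probe stood for a gene. Promoter sequences came from RefSeq on GRCm38.p6. Probes were named through a RefSeq gene table of the same assembly, from which no coordinates were taken (26412 by accession, 3854 by symbol, 735 by an older symbol). The file's own name stood for 8428. Medians over members are descriptions without a test.

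The members, the further lists and the alternatives were chosen with earlier results of these data known. Values in every ovary were given for the members with the 8 smallest p-values and those whose genotypes did not overlap. From each further list came the higher and the lower gene with the smallest p, and all tissue-restricted isoforms; marker lists are given as sums. The result of 1 marker gene is not reported here. Alternatives were median scaling, quantile normalization, normexp (offset 50), the deposited table, other filters, the mean of probes, array weights, slide or replicate blocks and leaving out each array. The number of arrays limits the precision. Python 3.11.15 with numpy 2.4.6, pandas 2.3.3 and matplotlib 3.10.9 made the tables and plots.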

Additional observations from a re-analysis of the deposited data

How the results depend on the processing

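No member was called under any of the 20 alternatives, and 14 of 29 kept the sign of their difference in all that could be computed. Cox6a1 reversed, from -0.35 to 0.12 with marked spots kept and 0.030 in the deposited table; it has no value without wild-type replicate 3. On the arrays of wild-type replicates 1 and 2, 127 and 177 of the 1000 brightest probes had every spot marked, against 0 on each other array. Keeping marked spots, and quantile normalization after leaving them out, were added after seeing the data. With the latter the medians were -0.21 (complex I), -0.28 (II), -0.18 (III), -0.19 (IV), -0.13 (V) and -0.21 (all members). With slide as a block, and on the shared slide alone, they were -0.22 (I), -0.16 (III) and -0.18 (all members). Normexp gave -0.12 for complex II. The cause of these shifts was not tested. Leaving out 1 array gave -0.13 to -0.037 (I), -0.24 to -0.14 (II), -0.097 to -0.0025 (III), -0.11 to -0.0011 (IV), -0.10 to 0.026 (V) and -0.12 to -0.012 (all members).

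The count of called probes, 1, was 6 with array weights and 0 with no filter, slide as a block, the shared slide alone or the replicate block. It was 0 to 19 leaving out 1 array, with 19 without wild-type replicate 3. The Selenbp1 difference stayed between -2.84 and -2.64 leaving out 1 array, with an adjusted p of 0.0186 to 0.167 (limma). It missed the threshold in limma with no filter (-2.75, adjusted p = 0.0824), slide as a block (-2.74, adjusted p = 0.0792), the shared slide alone (-2.74, adjusted p = 0.347) and the replicate block (-2.75, adjusted p = 0.557). Deviations of same-numbered ovaries from their genotype means correlated at -0.33, 0.30 and -0.027 across probes. Those of differently numbered ovaries correlated at -0.30 to 0.36. With means of 3 arrays these values cannot show whether replicate numbers pair the samples. With the replicate block the median over all members was -0.071.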
